A study of Mus musculus with 4 samples.

Results

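The liver X receptor (LXR) and sterol efflux genes described here are 8 mouse genes, namely the receptor genes Nr1h2 and Nr1h3 and the genes Abca1, Abcg1, Abcg5, Abcg8, Mylip and Lpcat3. They were taken by symbol from 2 deposited tables that together list 27425 genes, 24182 of them in both tables, and all 8 were found in each. They were selected on the deposited fasting changes, which were known when the list was drawn up, so those changes and their p-values are given as a description and support nothing further. No threshold was part of the choice.

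The RNA came from crypts of the small intestine, the pits that hold its stem cells, isolated from C57BL/6J males at 9 weeks of age. The 4 groups were fed mice without tetracycline, mice fasted for 24 hours without tetracycline, fed mice given the antibiotic tetracycline for 21 days, and fasted mice given it for 21 days. The same protocol wording accompanies every group, including those labelled as untreated, and no genetic change is named. The stated purpose was to see how fed and fasted animals differ in expression once the antibiotic has depleted AKK, an abbreviation the labels do not expand.

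The labels list 1 sample in each group, whereas the deposited means hold 2 libraries on each side of both comparisons. The libraries behind the tables cannot be tied to the labelled samples, and nothing says that they come from separate animals, so the deposited p-values may measure technical spread alone. The whole counts of each library were recovered from the deposited means for 99.945% of genes attempted without and 99.942% with tetracycline. They came to 45528714 to 62702146 counts per library, 79.8% of the summed means without tetracycline and nearly that share with it, the rest lying mostly in genes too abundant to decode. Library 1 of a side has the larger size factor of the pair. Which side of a table is fasted rests on the word order of the table's name, since no column states it. The reverse order would exchange fasted and fed in every value given here. The libraries of 1 side differed most in the fasted mice given tetracycline, where the log2 ratio between them had a standard deviation across genes of 1.04, against 0.573 in fasted mice without tetracycline and 0.477 and 0.638 in the fed sides. Summed markers of the whole epithelium stayed between 210 and 324, in units of 1000 normalized counts, while summed crypt base stem cell markers ranged from 23.3 to 102 and summed enterocyte markers from 462 to 1530 units. The labelled crypts thus carried abundant marker RNA of enterocytes, the absorptive cells of the villus, in every library.

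LXRs are nuclear receptors that bind oxysterols, pair with a retinoid X receptor and sit on response elements made of repeated hexamers. When sterols accumulate they switch on genes that move cholesterol out of cells or slow its entry. In the intestine, ABCG5 and ABCG8 form a joint pump on the luminal membrane that returns plant sterols and cholesterol to the gut, and ABCA1 on the opposite membrane hands cholesterol to apolipoprotein A-I. LPCAT3 remodels phospholipids for lipoprotein export, and MYLIP, also called IDOL, marks lipoprotein receptors for breakdown.

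Sequences are shown for the stretch between Abcg5 and Abcg8, because these genes lie head to head and had nearly the same values in every library, and for the LXR element of Abca1, because Abca1 alone was called. RefSeq promoter windows of assembly GRCm38.p6, which run from 250 bases before a start to 50 bases after, were held for 7 of the 8 genes, in 9 windows. The starts of Abcg5, on the minus strand, and of the main Abcg8 transcript, on the plus strand, left 109 bases between them at chr17:84683012-84683120. They are shown on the plus strand, with the letters TTATCT, the reverse complement of the GATA-factor letters AGATAA, in capitals.
Abcg5-Abcg8 segment: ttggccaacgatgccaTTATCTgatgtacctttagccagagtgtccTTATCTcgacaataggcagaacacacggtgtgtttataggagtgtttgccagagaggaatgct
The 30 bases around the Abca1 element lie at chr4:53159941-53159970 on the minus strand and begin upstream of its start, with the letters searched for, TGACCG and TAACC, in capitals.
Abca1 element: acagcgttTGACCGgtagTAACCccggcgc

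The segment between Abcg5 and Abcg8 held 2 matches to AGATAA, and the windows at the Abcg5 start and at the main Abcg8 start held 3 each, counted on both strands. These windows overlap and both contain the whole segment, so its matches are counted in each and the counts are not independent. Of all 32851 promoter windows, 11.2% held at least 1 match and 0.107% held 3 or more. The letters TGACCG, any 4 bases and TAACC, those of the LXR element known from the human ABCA1 promoter, began 67 bases before the Abca1 start and were found in 0.0122% of all windows, both strands searched. These letters were chosen after the mouse window had been read, and TAACC is shorter than a full hexamer. The textbook form, AGGTCA repeated with 4 bases between, was found in 0.0152% of all windows and in no window of the listed genes. A match of letters is a description of the window and not a bound site.

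By the GENCODE M21 annotation on GRCm38, the 8 genes are protein coding and lie on 6 chromosomes. Abcg5 spans chr17:84658234-84683011 on the minus strand and Abcg8 chr17:84676302-84700333 on the plus strand, with 82 exonic bases in common. Abcg1 lies on the same chromosome at chr17:31057675-31117988. Abca1 spans chr4:53030787-53159895, Mylip chr13:45389742-45412022, Nr1h2 chr7:44549616-44553951, Nr1h3 chr2:91184061-91202834 and Lpcat3 chr6:124663027-124704418. The library kit does not keep the strand, so reads cannot be assigned within the overlap of Abcg5 with Abcg8, nor within the 334 exonic bases that Lpcat3 shares with Emg1 and the 34 that Nr1h3 shares with Gm13783.

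The 8 genes differed widely in level. Per kilobase of annotated exon, Lpcat3 had the highest mean over the 8 libraries at 4560 normalized counts, followed by Abcg5 at 3910, Abcg8 at 3080, Nr1h2 at 1640 and Nr1h3 at 1380. Mylip followed at 128, Abca1 at 86.0 and Abcg1 at 24.4 normalized counts per kilobase. Each neighbouring pair in this order overlapped in its library values except Nr1h3 and Mylip. Abca1 varied most in fold among libraries, from 21.4 to 233 per kilobase, whereas Nr1h2 stayed between 1270 and 1910.

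The first comparison asked what fasting changed in mice without tetracycline. Abca1 rose 3.26-fold in fasted mice, and the other 7 genes did not reach an adjusted p under 0.05, the threshold for a call used throughout. The 2 fasted libraries did not rise alike. The deposited log2 changes of both receptor genes lay within 0.11 of 0. In the authors' deposited table, 1 of the 8 genes was called, against 2.27% of the 18100 genes tested, 1.06% higher and 1.22% lower in fasted mice. The median log2 change was 0.18 over the 8 genes and 0.007 over all tested genes, and 4 of the 8 changes were above 0. The sides did not overlap for 1 of the 8 genes, Abca1, against 44.5% of all genes whose mean reached 50.

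The second comparison took up fasting under tetracycline. None of the 8 genes passed the threshold, and the fasted libraries lay far apart for Abca1, Abcg5 and Abcg8. In the authors' deposited table, 0 of the 8 genes were called, against 0.600% of the 17993 genes tested. Of the 8, 1 had an unadjusted p under 0.05, against 5.34% of the genes tested. The median log2 change was 0.49 over the 8 genes and -0.018 over all tested genes, and 6 of the 8 changes were above 0. After subtraction of 0.36, the median log2 change of the markers of the whole epithelium in this table, 4 of the 8 were above 0, with Nr1h3 at -0.21 and Mylip at -0.30. The sides did not overlap for 1 of the 8 genes, Lpcat3, against 30.9% of all genes whose mean reached 50.

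**Figure D1:**
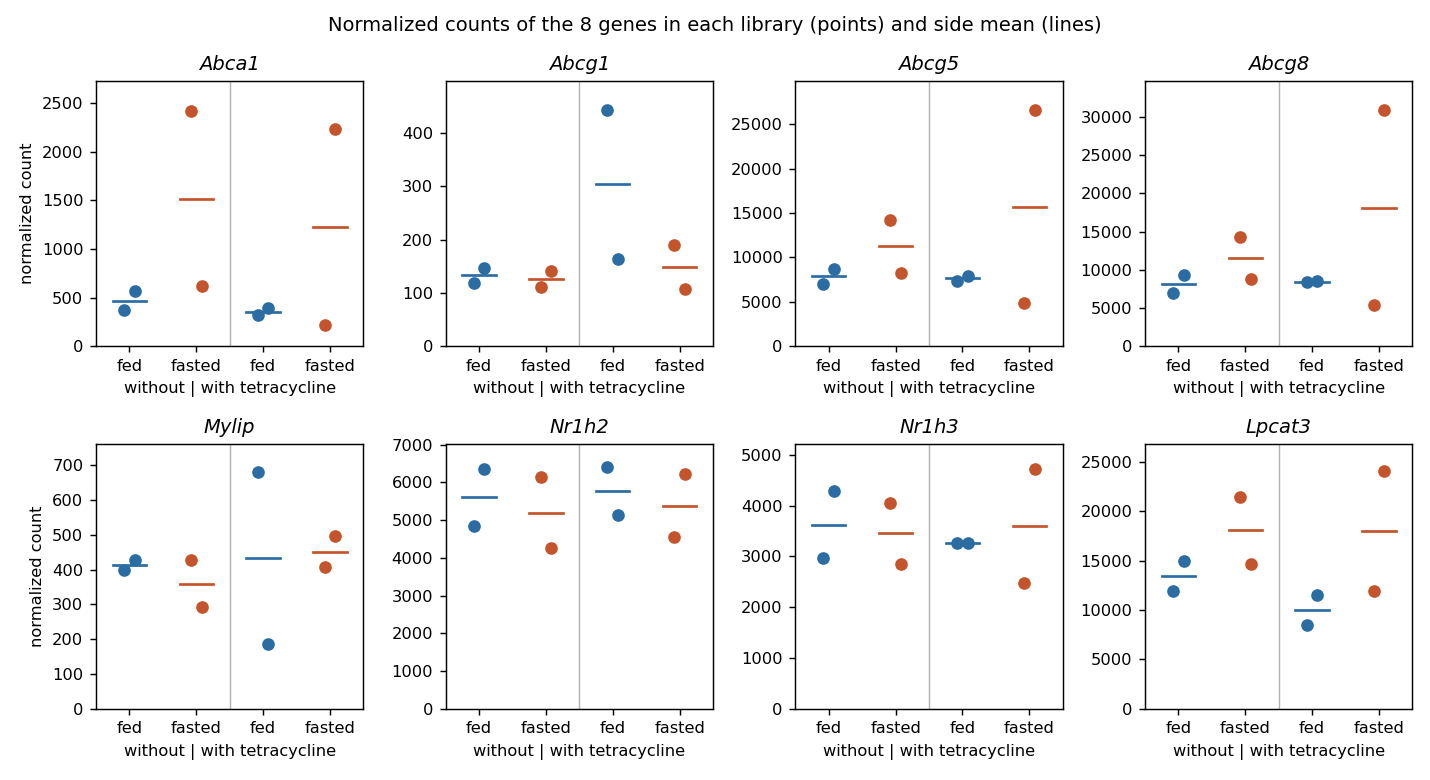
Normalized counts (vertical axes, linear, from 0) of the 8 genes in each library, fed in blue and fasted in orange, without tetracycline to the left and with it to the right of the grey line. Points are libraries and lines are side means; the high fasted values of Abca1, Abcg5 and Abcg8 with tetracycline come from 1 library.

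Nr1h2 encodes LXR-beta, the receptor present in most tissues. Without tetracycline it had 6134 and 4261 normalized counts in the fasted and 4833 and 6367 in the fed libraries, and with tetracycline 4550 and 6212 in the fasted and 6396 and 5138 in the fed libraries. The sides overlapped in both tables, and all 8 values lay between 4261 and 6396. The authors' deposited changes, fasted over fed on the log2 scale, were -0.11 (SE 0.30) without and -0.10 (SE 0.40) with tetracycline.

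Nr1h3 encodes LXR-alpha, the receptor of liver, intestine and macrophages. It had 4054 and 2852 normalized counts in the fasted and 2963 and 4290 in the fed libraries without tetracycline, a deposited log2 change of -0.07 (SE 0.31). With tetracycline it had 2482 and 4719 in the fasted and 3255 and 3270 in the fed libraries, a deposited log2 change of 0.14 (SE 0.46). In both tables the sides overlapped and the fasted libraries differed more from each other than the side means did. The interval of the deposited change, 95% by the normal approximation, ran from -0.68 to 0.54 without tetracycline.

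Abca1, the basolateral cholesterol exporter, was high in 1 fasted library of each table. Without tetracycline it had 2418 and 617.3 normalized counts in the fasted and 367.2 and 563.6 in the fed libraries. Both fasted libraries exceeded both fed ones, library 2 by little. The deposited log2 change was 1.71 (SE 0.50, 95% interval 0.72 to 2.69), its adjusted p being 0.0349 by the authors' deposited table. Both fasted libraries lay above both fed libraries for 19.9% of all genes with a mean of at least 50, so this order of libraries is common in the table.

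With tetracycline Abca1 had 222.2 and 2234 normalized counts in the fasted and 319.7 and 388.3 in the fed libraries. The fasted libraries differed 10.1-fold and lay on either side of both fed libraries. The deposited log2 change was 1.79 (SE 0.86), close to that without tetracycline, with an unadjusted p of 0.0367 and an adjusted p of 0.868 by the authors' deposited table. With each library left out in turn, the log2 ratio of the side means ran from 0.41 to 2.38 without tetracycline, the lowest value without fasted library 1. With tetracycline it ran from -0.67, without fasted library 2, to 2.66. Whether the call without tetracycline would hold without fasted library 1 was not tested.

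**Figure D2:**
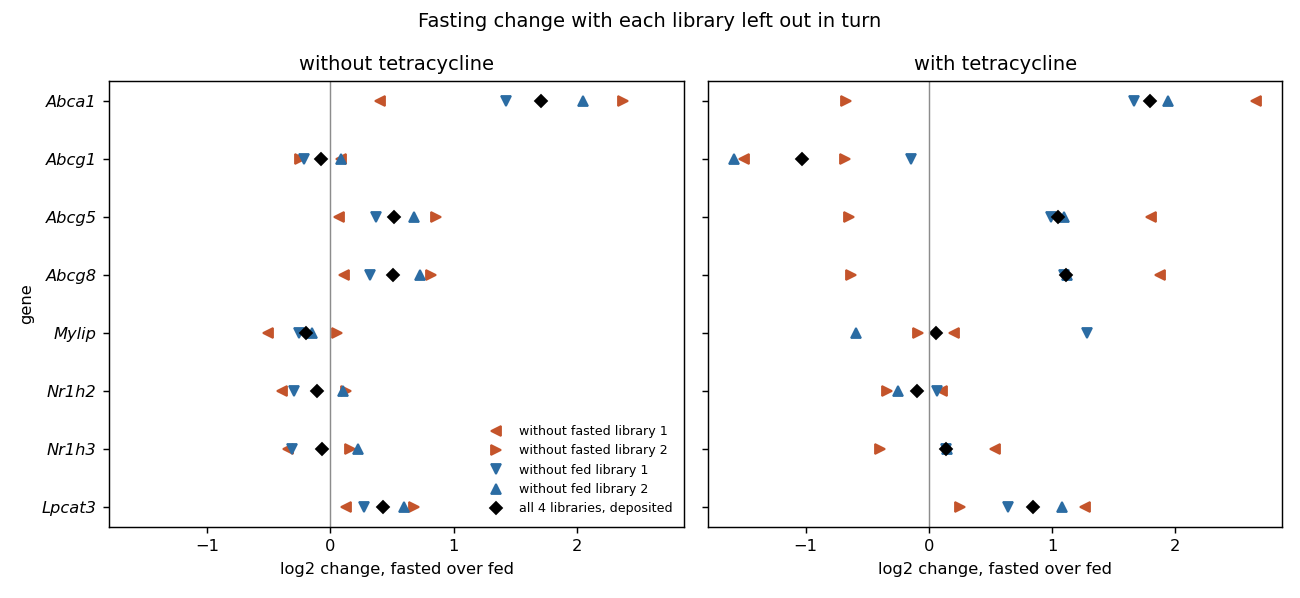
Log2 ratio of fasted over fed side means (horizontal axis) for each gene (vertical axis) with 1 library left out (triangles, by library) and the deposited change from all 4 libraries (black diamonds), one panel per table. With tetracycline, Abca1, Abcg5, Abcg8, Nr1h3 and Mylip cross 0 when fasted library 2 is left out.

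Abcg5 and Abcg8 encode the partners of the luminal sterol pump. Abcg5 had 14218 and 8238 normalized counts in the fasted and 7034 and 8665 in the fed libraries without tetracycline. Abcg8 had 14310 and 8772 in the fasted and 6978 and 9247 in the fed libraries. For both genes fasted library 1 was highest and fasted library 2 lay between the fed libraries. Deposited log2 changes came to 0.52 (SE 0.32, adjusted p 0.619) for Abcg5 and 0.51 (SE 0.32, adjusted p 0.621) for Abcg8, in the authors' deposited table.

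With tetracycline, Abcg5 had 4867 and 26557 normalized counts in the fasted and 7337 and 7891 in the fed libraries. Abcg8 had 5418 and 30857 in the fasted and 8350 and 8463 in the fed libraries. As for Abca1, fasted library 1 was the lowest and fasted library 2 the highest of the 4, with the fed libraries close together between them. The deposited log2 changes were 1.05 (SE 0.71) and 1.11 (SE 0.72), each with 0.9999 as its adjusted p in the authors' deposited table. Without fasted library 2 the log2 ratios of the side means turned to -0.65 for Abcg5 and -0.63 for Abcg8.

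The pair kept a nearly constant ratio throughout. Normalized counts of Abcg8 over those of Abcg5 were 1.01, 1.06, 0.992 and 1.07 in fasted libraries 1 and 2 and fed libraries 1 and 2 without tetracycline, and 1.11, 1.16, 1.14 and 1.07 with it. Over the same libraries Abcg5 itself ranged from 4867 to 26557. The part of reads in the exonic overlap of both genes in this ratio was not tested.

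Abcg1, which exports cholesterol to high-density lipoprotein and is best known from macrophages, was the least abundant gene. It had 111.9 and 140.9 normalized counts in the fasted and 119.1 and 146.7 in the fed libraries without tetracycline, a deposited log2 change of -0.07 (SE 0.41). With tetracycline it had 189.3 and 107.3 in the fasted and 444.1 and 163.9 in the fed libraries, a deposited log2 change of -1.03 (SE 0.64, adjusted p 0.9999 by the authors' deposited table). The sides overlapped in both tables, and fed library 1 with tetracycline stood above the rest. Without that library the log2 ratio of the side means was -0.15.

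Lpcat3, the lysophosphatidylcholine acyltransferase, had 21505 and 14657 normalized counts in the fasted and 11948 and 14953 in the fed libraries without tetracycline. With tetracycline it had 11951 and 24097 in the fasted and 8512 and 11543 in the fed libraries. Here both fasted libraries exceeded both fed ones with tetracycline, an order found for 15.7% of genes with a mean of at least 50 in that table. The deposited log2 changes were 0.43 (SE 0.29, adjusted p 0.682) and 0.85 (SE 0.49, unadjusted p 0.0836, adjusted p 0.9999) in the authors' deposited tables. In each series of left-out libraries the ratio stayed above 0, from 0.12 to 0.68 without and from 0.25 to 1.27 with tetracycline.

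Mylip, the ubiquitin ligase, showed no shared direction. It had 427.5 and 291.4 normalized counts in the fasted and 398.0 and 428.0 in the fed libraries without tetracycline, and 406.5 and 498.0 in the fasted and 681.2 and 185.5 in the fed libraries with it. The fed libraries with tetracycline differed 3.67-fold, and the fasted values lay between them. The deposited log2 changes were -0.20 (SE 0.33) and 0.06 (SE 0.65).

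**Figure D3:**
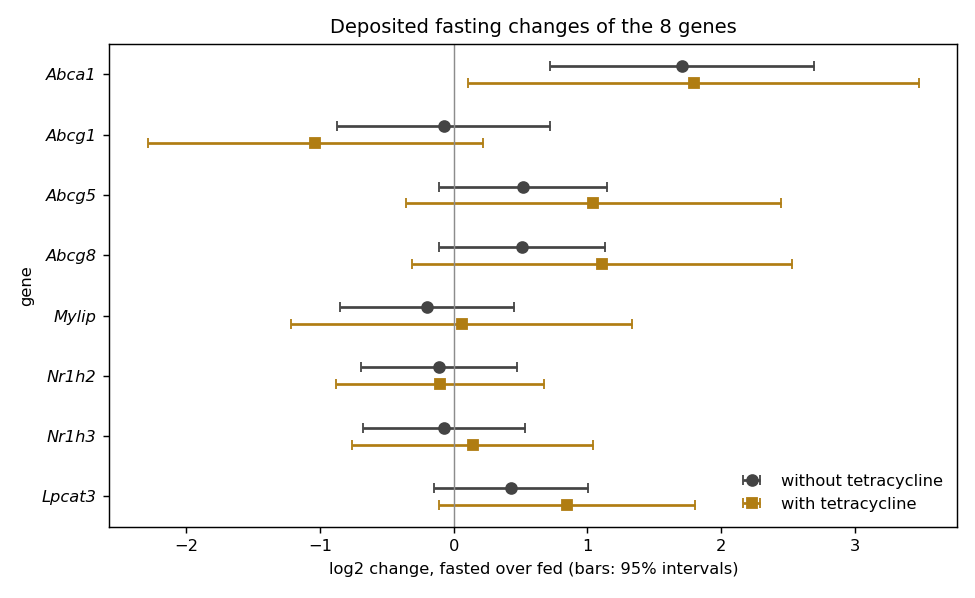
Deposited log2 change, fasted over fed (horizontal axis), of the 8 genes (vertical axis) without (circles) and with tetracycline (squares). Bars are 95% intervals, and the interval excludes 0 for Abca1 alone, at 0.72 to 2.69 without and 0.11 to 3.48 with tetracycline, and only the former passed adjustment.

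Expression of several genes followed the markers of enterocytes across libraries. Of the 14 enterocyte markers listed, the 12 recovered in both tables summed to 1430 and 729 units of 1000 normalized counts in the fasted and 647 and 978 units in the fed libraries without tetracycline. With tetracycline they summed to 462 and 1530 units in the fasted and 783 and 733 units in the fed libraries. The libraries with the highest sum in each table are those in which Abca1, Abcg5, Abcg8 and Lpcat3 were highest. Of the 14 markers, 1 was called in the authors' deposited table without tetracycline, Fabp1, which was higher in fasted mice, and 0 were called with tetracycline. The changes of 12 of the 14 without and 11 with tetracycline were above 0. Their median log2 changes were 0.59 and 0.69, against 0.007 and -0.018 over all tested genes. Of 5 markers of Paneth cells, the secretory cells of the crypt base, 4 were called higher in fasted mice without tetracycline and 0 with it, and of 5 crypt base stem cell markers 0 were called in either table. Over all genes tested 2.27% were called without and 0.600% with tetracycline, so the counts of 0 in these short lists lie near the background. The part of these cells in the values of the 8 genes was not tested. In bulk RNA a change in the share of a cell type and a change in RNA per cell cannot be told apart.

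On log2 values centred within each table, Pearson's r over the 8 libraries with the enterocyte sum was 0.94 for Abca1, 0.95 for Abcg5, 0.94 for Abcg8, 0.93 for Nr1h3, 0.78 for Lpcat3 and 0.76 for Nr1h2. Mylip (0.28) and Abcg1 (-0.38) had lower values. With other marker sums the coefficients took either sign. Nr1h2 had an r of 0.84 with the distal and 0.71 with the proximal gut markers, and Nr1h3 of 0.78 and 0.74. With the markers of the whole epithelium Lpcat3 had an r of 0.73 and Abcg1 of -0.84. Lpcat3 had an r of -0.95 with the summed lymphocyte and -0.91 with the myeloid markers, and Abca1 of -0.82 with the lymphocyte markers. Abcg5 and Abcg8 had an r of -0.87 and -0.89 with the crypt base stem cell markers. These coefficients describe points that share library and scaling. Between members, r was 0.998 for Abcg5 with Abcg8, 0.96 for Abca1 with Abcg5, and 0.91 for Abca1 with Lpcat3.

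Abcg1 varied across libraries with markers of other cells. Its r over the 8 libraries was 0.92 with the summed lymphocyte markers, 0.93 with the endothelial and 0.88 with the macrophage and myeloid markers. The 13 myeloid markers summed to 2.54 and 3.83 units of 1000 normalized counts in the fasted and 4.82 and 7.95 units in the fed libraries without tetracycline, and to 5.80 and 1.49 units in the fasted and 14.7 and 6.09 units in the fed libraries with it. Fed library 1 with tetracycline, where Abcg1 was highest, also had the highest myeloid sum and the highest lymphocyte sum, 56.8 units. Of the 13 myeloid and 7 lymphocyte markers none was at 0 in any library. In the table without tetracycline 1 myeloid and 3 lymphocyte markers were called lower in fasted mice, and with it 0 of either list. The part of these cells in the Abcg1 values was not tested.

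**Figure D4:**
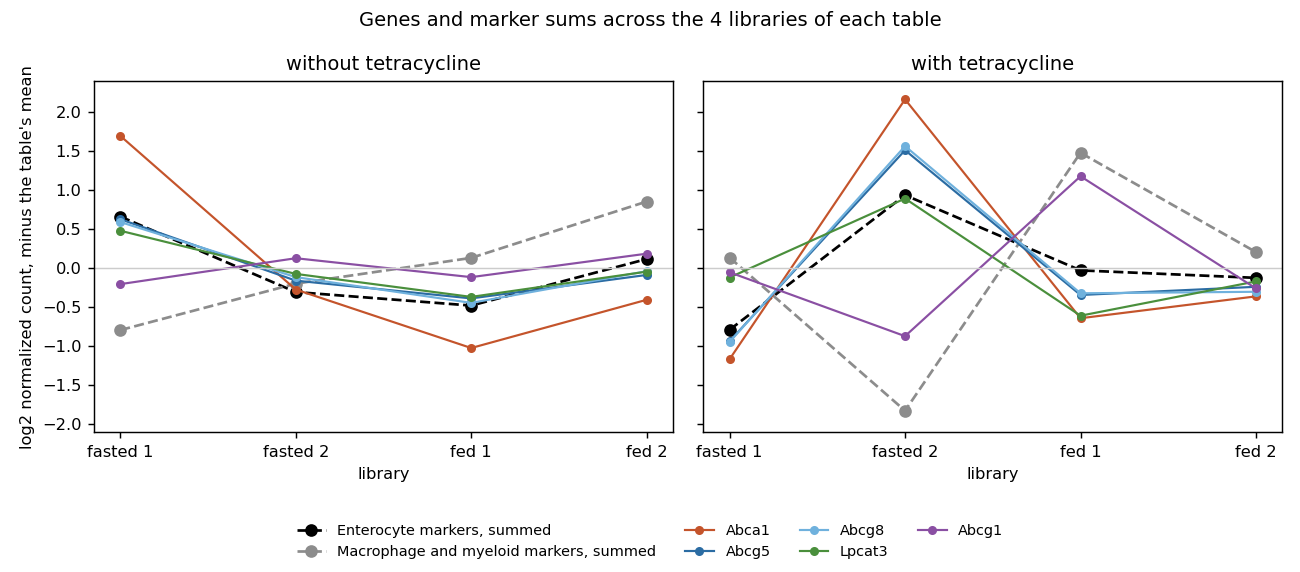
Log2 normalized count minus the table's mean (vertical axis) in each library (horizontal axis), one panel per table, for 5 of the genes and for the summed enterocyte and myeloid markers (dashed). Lines join libraries for reading only. Abca1, Abcg5, Abcg8 and Lpcat3 peak with the enterocyte sum, in fasted library 1 without and fasted library 2 with tetracycline, and Abcg1 peaks with the myeloid sum in fed library 1 with tetracycline.

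Expressed per 1000 counts of the summed enterocyte markers, a scaling added after the values were seen, the pump genes were nearly level without tetracycline, which was not so per 1000 counts of the markers of the whole epithelium. On the enterocyte scale Abcg5 had 9.97 and 11.3 in the fasted and 10.9 and 8.86 in the fed libraries, a log2 ratio of the side means of 0.11 in place of 0.52. Abcg8 had a log2 ratio of 0.12 and Lpcat3 of 0.06 on the same scale. Abca1 had 1.70 and 0.846 in the fasted and 0.568 and 0.576 in the fed libraries, a log2 ratio of 1.15, with both fasted libraries above both fed ones. Nr1h2, Nr1h3 and Mylip had both fasted libraries below both fed ones on this scale, with log2 ratios of -0.46, -0.41 and -0.59. The sides thus did not overlap for 4 of the 8 genes, against 23.4% of all genes whose mean reached 50.

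Per 1000 counts of the markers of the whole epithelium, likewise added after the values were seen, the log2 ratios without tetracycline were 0.66 for Abcg5 and for Abcg8, 0.58 for Lpcat3 and 1.84 for Abca1, each with both fasted libraries above both fed ones. Nr1h2 (0.05), Nr1h3 (0.09) and Mylip (-0.05) overlapped there, as did Abcg1 (0.10). The sides thus did not overlap for 4 of the 8 genes on this scale too, against 45.5% of all genes whose mean reached 50. Abca1 alone of the 8 was separated on both scales, and the share of all genes so separated was not counted. With tetracycline the sides on this scale did not overlap for Lpcat3 (0.52, fasted higher) and Nr1h2 (-0.44, fasted lower), against 43.5% of all genes whose mean reached 50. The nearest libraries were almost level, at 45.6 fasted and 44.5 fed for Lpcat3 and 19.7 fasted and 19.8 fed for Nr1h2.

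With tetracycline, Abca1 per 1000 enterocyte marker counts was 0.481 and 1.46 in the fasted and 0.408 and 0.530 in the fed libraries, a log2 ratio of 1.05, and the sides overlapped. Abcg5 was 10.5 and 17.4 in the fasted and 9.37 and 10.8 in the fed libraries, a log2 ratio of 0.47. Abcg8 was 11.7 and 20.2 in the fasted and 10.7 and 11.5 in the fed libraries, a log2 ratio of 0.52. Lpcat3 was highest on this scale in fasted library 1, at 25.9, and was 15.8 in fasted library 2 and 10.9 and 15.8 in the fed libraries, a log2 ratio of 0.65. The fasted library with the most enterocyte RNA was therefore the highest for Abca1, Abcg5 and Abcg8 but not for Lpcat3. The sides did not overlap for 2 of the 8 genes, Abcg8 and Lpcat3, both higher in fasted mice and both with their nearest libraries almost level, against 9.07% of all genes whose mean reached 50. The scaled values carry no test.

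**Figure D5:**
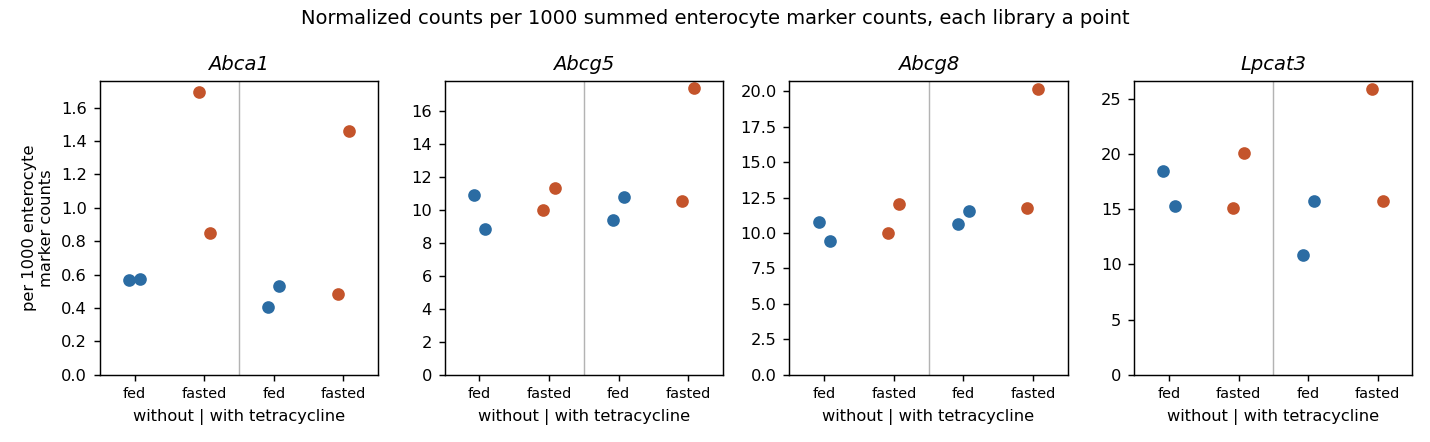
Normalized counts of 4 genes per 1000 counts of the summed enterocyte markers (vertical axes, linear, from 0), each point a library, fed in blue and fasted in orange, without tetracycline to the left and with it to the right. Without tetracycline Abca1 keeps both fasted libraries, 0.846 and 1.70, above both fed ones, while Abcg5, Abcg8 and Lpcat3 overlap.

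Genes with library patterns most like those of the exporters were named by their r over the 8 libraries, among the 13129 genes of mean at least 50 recovered in both tables. For Abca1 these were Sidt2 (0.997), Slc16a10 (0.9969) and Tmc5 (0.9949). For Abcg5 they were Map7 (0.9989), Abcg8 (0.9982) and Gpr107 (0.9962), and for Abcg8 they were Abcg5, Map7 and Gpr107. Thus Abcg8 ranked second of all genes in likeness to Abcg5, and Abcg5 ranked first in likeness to Abcg8. Slc16a10, an aromatic amino acid transporter, had 26130 and 12620 normalized counts in the fasted and 8306 and 10720 in the fed libraries without tetracycline.

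The partners and cofactors of LXR did not pass the threshold. Of 12 listed, 11 were tested in each table and 0 were called in either, with median log2 changes of 0.29 without and -0.06 with tetracycline. Ncor1, a corepressor that silences LXR targets without ligand, had the largest statistic. Ncor1 had 32170 and 21630 normalized counts in the fasted and 16240 and 14800 in the fed libraries without tetracycline, a deposited log2 change of 0.79 (SE 0.29, adjusted p 0.139 by the authors' deposited table) against -0.06 (SE 0.39) with tetracycline. Rxra, the partner receptor, had deposited log2 changes of 0.30 (SE 0.26) and 0.05 (SE 0.40).

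Of 16 other target genes of LXR, 15 were tested in each table. None of them was called higher in the authors' deposited tables, while 2 without and 1 with tetracycline were called lower in fasted mice. Over all genes tested, 1.06% were called higher and 1.22% lower without tetracycline, and 0.333% higher and 0.267% lower with it, so that 0 of 15 called higher lies near the background. Scd2, a stearoyl-CoA desaturase, had 430.2 and 457.1 normalized counts in the fasted and 3940 and 3231 in the fed libraries without tetracycline, and 683.8 and 394.9 in the fasted and 3555 and 2120 in the fed libraries with it. Its sides lay far apart in both tables, with deposited log2 changes of -3.02 (SE 0.27, adjusted p 6.64e-26) and -2.39 (SE 0.49, adjusted p 0.000569) in the authors' deposited tables.

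Scd1, the related desaturase, fell by 1.85 on the log2 scale (SE 0.39, adjusted p 0.000333 by the authors' deposited table) without tetracycline. With it, Scd1 had 380.1 and 498.0 normalized counts in the fasted and 879.6 and 322.5 in the fed libraries, which overlap. Srebf1, which encodes the lipogenic factor SREBP-1 and is a direct LXR target, had deposited log2 changes of 0.47 (SE 0.28) and 0.83 (SE 0.53), neither called. With tetracycline its fasted libraries held 4809 and 12000 normalized counts, the second again the high one, and its fed libraries 4789 and 4659.

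Among 10 genes that make or remove oxysterols and desmosterol, 6 were tested without and 5 with tetracycline. One of them, Cyp27a1, which makes the LXR ligand 27-hydroxycholesterol in many tissues, was called higher in fasted mice without tetracycline, and 0 of 5 were called with it. Cyp27a1 had 5501 and 4154 normalized counts in the fasted and 1047 and 1573 in the fed libraries without tetracycline, and 2063 and 12780 in the fasted and 1717 and 1157 in the fed libraries with it. Both fasted libraries exceeded both fed ones in each table. The deposited log2 changes were 1.88 (SE 0.31, adjusted p 4.05e-07) and 2.37 (SE 0.76, adjusted p 0.177) in the authors' deposited tables.

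Of 18 genes of sterol uptake, trafficking and esterification, all 18 were tested. Without tetracycline 1 of them, Apob, was called higher in the authors' deposited table, and with tetracycline 0 were called, with median log2 changes of 0.16 and 0.34. Apob, the structural protein of chylomicrons, had 246800 and 83980 normalized counts in the fasted and 57720 and 66750 in the fed libraries without tetracycline, a deposited log2 change of 1.41 (SE 0.42, adjusted p 0.0370). As for Abca1, fasted library 1 was the high one there, and with tetracycline fasted library 2 was, at 224600 against 35500 in fasted library 1. Npc1l1, the luminal importer of sterols that opposes the pump, had deposited log2 changes of 0.07 (SE 0.91) and -0.29 (SE 0.57), with fasted values of 47170 and 12060 normalized counts without tetracycline.

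Relatives of the transporters were mostly low. Of 15 ABCG and ABCA relatives, 9 were tested without and 10 with tetracycline, and 0 were called in either table. Abcg3 and Abca8b had the largest statistics, with deposited log2 changes without tetracycline of -1.15 (SE 0.47) and -1.68 (SE 0.82). Of 10 relatives of Lpcat3, all were tested and 0 were called in either table. Mboat1, an acyltransferase of the same family, had 125.7 and 157.0 normalized counts in the fasted and 322.5 and 271.3 in the fed libraries without tetracycline (deposited log2 change -1.07, SE 0.35, adjusted p 0.0843 by the authors' deposited table). Mboat2 had deposited log2 changes of 0.85 (SE 0.68) and 1.65 (SE 0.74).

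Of 13 partners and receptors of MYLIP, 1 was called without tetracycline, Vldlr, higher in fasted mice, and 0 were called with it. Vldlr, the very-low-density lipoprotein receptor that MYLIP marks for breakdown, had 311.9 and 339.8 normalized counts in the fasted and 163.7 and 133.6 in the fed libraries without tetracycline. With tetracycline it had 390.0 and 547.6 in the fasted and 147.3 and 258.9 in the fed libraries, so that the sides did not overlap in either table. On the log2 scale the deposited changes were 1.13 (SE 0.34, adjusted p 0.0439) and 1.21 (SE 0.50, adjusted p 0.646) in the authors' deposited tables. Lrp8, another receptor that MYLIP marks, was not called in either table, with deposited log2 changes of -0.52 (SE 0.51) without and -1.08 (SE 0.72) with tetracycline.

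The markers of position along the gut are given beside the pump genes, whose expression is known to be high in the proximal small intestine. Gata4, a transcription factor of the proximal small intestine, had 11350 and 9889 normalized counts in the fasted and 10680 and 10370 in the fed libraries without tetracycline, and 8501 and 12250 in the fasted and 11260 and 12530 in the fed libraries with it. Fabp6, an ileal protein, had 583.4 and 330.2 in the fasted and 13400 and 18580 in the fed libraries without tetracycline, and 728.2 and 4434 in the fasted and 14360 and 9523 in the fed libraries with it. Gata4 overlapped between sides in both tables and Fabp6 in neither, but other markers of these lists went other ways. Of 6 proximal markers 1, the iron exporter gene Slc40a1, was called lower in fasted mice in each of the authors' deposited tables, at -1.28 (SE 0.34) and -1.91 (SE 0.49) on the log2 scale. Of 6 distal markers 1, Fabp6, was called lower without tetracycline and 0 were called with it, while 3 of 6 changes without and 5 of 6 with tetracycline were above 0. Nr1h2 and Nr1h3 were the genes of the 8 with the highest r with both of these marker sums, as given above. The part of gut position in the values of the 8 genes was not tested.

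The third comparison asked whether the fasting changes differed between mice with and without tetracycline. No difference was detected for any of the 8 genes, and the intervals were wide. The test is built from the deposited changes on which the genes were selected, so its values for them are a description. By a Wald test on the deposited changes, adjusted by Benjamini-Hochberg over 17571 genes, 0 of the 8 were called, against 0.0228% of all genes, and 0 of the 8 had an unadjusted p under 0.05, against 185 of all 17571 genes. The change of Abca1 with tetracycline minus that without was 0.09 on the log2 scale (SE 0.995, 95% interval -1.86 to 2.04). For the pump genes the differences were 0.53 (SE 0.78, 95% interval -1.01 to 2.06) for Abcg5 and 0.60 (SE 0.79, 95% interval -0.95 to 2.15) for Abcg8. Abcg1 had the largest difference in size, -0.96 (SE 0.76, 95% interval -2.44 to 0.52), and Nr1h2 the smallest, 0.01 (SE 0.50). With each statistic divided by the robust spread of all, 0.714, the smallest adjusted p of the 8 genes was 0.978, and 32 of all genes were called.

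The last comparison set the levels of mice with and without tetracycline side by side, within fed and within fasted mice. These ratios cross tables that were scaled separately, were centred on the median of 13194 genes, and carry no test. In fed mice Abcg1 was higher with tetracycline by 1.17 and Lpcat3 lower, at -0.44, on the log2 scale, and for both the fed libraries of the tables did not overlap, as was the case for 36.1% of all genes whose mean reached 50 in both tables. Overlap was judged before centring, where the nearest fed libraries of Lpcat3 were 11543 with and 11948 without tetracycline. Those of Abcg1 were 163.9 with and 146.7 without it. The Abcg1 ratio was 0.28 without fed library 1 of the mice given tetracycline. Centred on the markers of the whole epithelium instead, the ratio was 0.04 for Lpcat3 and 1.65 for Abcg1. For the other 6 genes the fed libraries overlapped, with centred log2 ratios from -0.41 for Abca1 to 0.05 for Mylip. Centred on the markers of the whole epithelium, the ratios of these 6 ran from 0.07 for Abca1 to 0.54 for Mylip. Abca1, Abcg5 and Nr1h3 thereby turned from below to above 0. The Mylip ratio ran from -1.17, without fed library 1 of the mice given tetracycline, to 0.70 without fed library 2. In fasted mice the libraries of all 8 genes overlapped, against 17.6% of genes whose libraries did not, with ratios from -0.38 for Abca1 to 0.58 for Abcg8. These ratios rest on single libraries. Without fasted library 2 of the mice given tetracycline they were -2.84 for Abca1, -1.28 for Abcg5 and -1.16 for Abcg8. Over the libraries left out in turn the highest values were 0.92, 1.17 and 1.35.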

How the data were processed

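The 8 genes and all gene lists were chosen with earlier results of these data known. Salmon, DESeq2 and the build mm10 are named, without roles or versions, in the submitters' processing notes, and the annotation release is not given in the sources used here. Of the deposited identifiers, 99.3% and 99.2% matched GENCODE M21 without their version and 95.6% and 95.4% carried a version 1 higher, so printed positions are those of GENCODE M21 or RefSeq.

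Per the file headers, each table holds a mean, a log2 fold change with its standard error, a statistic, a p-value and an adjusted p, column names that DESeq2 uses. From these names, the authors' mean was read as a signal, the average over libraries of counts divided by size factors, the deposited log2 ratio and its standard error as on 1 scale, the authors' statistic as a score equal to their quotient, and the deposited adjusted p-values as Benjamini-Hochberg adjusted. The direction, fasted over fed, was read from the order of words in the tables' names, as no column states it.

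Each deposited mean, printed to 15 digits, is a sum of whole counts times 1 fixed step per library. Whole counts were solved from it by lattice reduction, and a set was kept if a negative binomial fit to it gave the deposited change within 1e-09. Means above 300000 were not attempted (15 and 16 genes). As the libraries could not be tied to labelled samples, no differential expression test was run on the recovered counts. Scripts used Python 3.11.15, numpy 2.4.6 and scipy 1.17.1, and were tested on simulated data.

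The test of the difference divides the difference of the deposited changes by its standard error, the root of the sum of both squared errors, and reads a two-sided p from the normal distribution. Level ratios used a pseudocount of 1. Genes beyond the 8 are named by rule: from each list, up to 4 called genes with the smallest adjusted p, or, where none was called, the 2 largest statistics. Vldlr, Lrp8, Srebf1, Rxra, Npc1l1, Fabp6 and Gata4 are always named, as are the 3 genes most like Abca1, Abcg5 and Abcg8. Some genes that the rule names are not reported here. Fabp1, Emg1 and Gm13783 were named outside the rule, Fabp1 after its value was seen, and so was Slc40a1.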

Additional observations from a re-analysis of the deposited data

How the results depend on the processing

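At an adjusted p under 0.01 in the authors' deposited table, 0 of the 8 genes were called without tetracycline, against 1 at 0.05. Abca1 kept its call when p was adjusted again over genes with a mean of at least 50 (adjusted p 0.0297) or over all genes with a p (adjusted p 0.0493). The counts of called genes with tetracycline and for the difference stayed at 0 under the alternatives run. Leaving out 1 library at a time, Abca1 reversed to -0.67 with tetracycline without fasted library 2, within a range of -0.67 to 2.66, against 0.41 to 2.38 without tetracycline. Ranges for Mylip were -0.50 to 0.05 without and -0.59 to 1.29 with tetracycline, for Nr1h2 -0.39 to 0.13 and -0.34 to 0.11, and for Nr1h3 -0.35 to 0.22 and -0.39 to 0.53. For Abcg5 they were 0.07 to 0.86 and -0.65 to 1.80, for Abcg8 0.11 to 0.82 and -0.63 to 1.88, and for Abcg1 -0.25 to 0.09 and -1.58 to -0.15. Per 1000 enterocyte marker counts, chosen after seeing the data, Mylip came to -0.59, Nr1h2 to -0.46 and Nr1h3 to -0.41 without tetracycline, against -0.05, 0.05 and 0.09 per 1000 counts of the whole-epithelium markers. Centring the tetracycline ratios on the epithelial markers moved the median of the 8 genes in fed mice from -0.02 to 0.47. Centring subtracts the same constant from every gene of a side, so each gene moved alike. The epithelial markers thus had a lower median ratio than all genes in fed mice, and the cause of that was not tested. Leaving out libraries in these ratios was likewise chosen after seeing the data. No paired analysis was possible because the labels list 1 sample per group and the libraries carry no replicate number. With 2 libraries a side the precision is limited, and counting error and the spread between libraries were not separated.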
